A study of Mus musculus with 15 samples.

Results

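The 9 genes followed here stand around bone morphogenetic protein (BMP) signalling in mouse liver: the inhibitor-of-differentiation genes Id1, Id2, Id3 and Id4, the inhibitory SMAD genes Smad6 and Smad7, the hepcidin gene Hamp, the ligand gene Bmp6 and the transcription factor gene Atoh8. All 9 were measured, each by 1 probe set that carried no other gene symbol, out of 19938 genes with such a probe set. The set was chosen by the intensities of Id1 and Id3, which were lower after di(2-ethylhexyl) phthalate (DEHP) in PPARα-null mice. Values of that contrast are therefore given as a description with no test, as are the other contrasts of Id1 and Id3 that use null animals. Liver RNA came from male mice aged 7.5 months, 1 array per animal, in 4 groups: 3 PPARα-null mice given DEHP at 1150 mg/kg/day by gavage in corn oil for 4 days, 4 nulls on the vehicle alone, 4 wild-type mice given the same DEHP dose and 4 wild-type mice given corn oil alone. All animals thus received the oil. The nulls carried the Pparatm1Gonz allele on 129S4/SvJae and lack the receptor in every cell type, and the wild-type mice were 129S1/SvlmJ, so genotype and substrain cannot be told apart. PPARα is a nuclear receptor through which DEHP and other peroxisome proliferators act on the liver, though not the only route for DEHP.

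BMP ligands bind paired type I and type II receptors on the cell surface, which phosphorylate SMAD1 and its relatives. These SMADs enter the nucleus with SMAD4 and switch on target genes, among them the Id genes, the feedback inhibitors Smad6 and Smad7, Atoh8 and, in hepatocytes, Hamp. In mouse liver the sinusoidal endothelium makes BMP2 and BMP6, hemojuvelin helps the hepatocyte to sense them, and hepcidin then blocks iron export by ferroportin. Id proteins carry a helix-loop-helix domain without a DNA-binding part and tie up the E proteins that other transcription factors need as partners.

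Median intensity per array ran from 44.4 to 47.5 and arrays of one group correlated at r = 0.9876 to 0.9915 across probe sets. Ppara read 554, 617 and 558 in null DEHP mice and 508, 606, 549 and 517 in null corn oil mice, against 936, 773, 1197 and 751 in wild-type DEHP mice and 798, 932, 943 and 849.5 in wild-type corn oil mice. It was lower in null than in wild-type animals under corn oil (log2 difference -0.69 ± 0.12, SE, adjusted p = 0.00645 in limma). The stretch of Ppara that its probe set reads is not stated, so a transcript left over from the disrupted allele would not be seen as a mismatch. Cyp4a14, a fatty acid hydroxylase under PPARα control, read 57.6, 23.9 and 44.6 in null DEHP mice and 107, 31.8, 26.8 and 18.7 in null corn oil mice, against 10729, 11014, 11563 and 10787 in wild-type DEHP mice and 278, 733, 323 and 234 in wild-type corn oil mice, and no library stood against its label. Cyp2b10 is a cytochrome P450 gene controlled by the receptor CAR. It read 344, 480.0 and 300.0 in null DEHP mice and 108, 114, 120.79 and 166 in null corn oil mice. In wild-type mice it read 437, 321, 409 and 465 under DEHP and 287, 303, 305 and 280 under corn oil. The DEHP difference was 1.55 ± 0.16 in nulls (adjusted p = 0.000635 in limma), a call lost in the fit of 2 groups only. In wild type it was 0.46 ± 0.15 (adjusted p = 0.115). Under corn oil Cyp2b10 was lower in nulls than in wild type (-1.23, adjusted p = 0.000269 in limma). The 5 measured hepatocyte markers all had a median log2 intensity of at least 6 in every group.

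The promoters below show what is written just upstream of 4 of the genes, 2 Id genes, hepcidin and a feedback SMAD, from 250 bases before to 50 bases after the transcription start (RefSeq, GRCm38.p6, 5′ to 3′ in the direction of the gene). Promoters of 7 of the 9 genes were matched, all but Id1 and Smad7. Capitals mark matches to 4 motifs, each of which reads the same on both strands and none of which overlaps another here: GGCGCC, the GC-rich core of BMP response elements, GTCTAGAC, the SMAD-binding palindrome, TTCNNNGAA, a STAT site, and CACGTG, an E-box.
Id3, chr4:136143572-136143871, plus strand: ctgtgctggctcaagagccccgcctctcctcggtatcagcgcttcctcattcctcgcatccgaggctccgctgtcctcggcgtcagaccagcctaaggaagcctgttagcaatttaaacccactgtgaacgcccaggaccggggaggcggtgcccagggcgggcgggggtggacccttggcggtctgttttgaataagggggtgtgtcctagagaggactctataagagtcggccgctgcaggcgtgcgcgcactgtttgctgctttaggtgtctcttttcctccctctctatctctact
Id2, chr12:25096043-25096342, minus strand: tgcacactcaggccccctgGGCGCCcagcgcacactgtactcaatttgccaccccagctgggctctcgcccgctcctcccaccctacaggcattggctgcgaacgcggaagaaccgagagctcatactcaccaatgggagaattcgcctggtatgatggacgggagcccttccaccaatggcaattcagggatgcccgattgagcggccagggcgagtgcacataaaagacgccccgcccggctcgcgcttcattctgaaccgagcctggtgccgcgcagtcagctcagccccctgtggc
Hamp, chr7:30943980-30944279, minus strand: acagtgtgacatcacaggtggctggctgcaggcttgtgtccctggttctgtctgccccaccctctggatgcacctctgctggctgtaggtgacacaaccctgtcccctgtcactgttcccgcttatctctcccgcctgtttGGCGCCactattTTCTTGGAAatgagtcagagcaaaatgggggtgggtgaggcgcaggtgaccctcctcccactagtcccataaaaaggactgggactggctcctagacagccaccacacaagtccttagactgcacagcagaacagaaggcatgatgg
Smad6, chr9:64022010-64022309, minus strand: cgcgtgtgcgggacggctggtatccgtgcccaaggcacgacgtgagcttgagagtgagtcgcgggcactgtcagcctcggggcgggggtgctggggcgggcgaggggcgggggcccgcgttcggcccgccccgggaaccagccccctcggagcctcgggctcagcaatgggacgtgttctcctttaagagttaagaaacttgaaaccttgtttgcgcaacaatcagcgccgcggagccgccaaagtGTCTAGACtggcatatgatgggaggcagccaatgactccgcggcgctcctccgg

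The Hamp window holds GGCGCC 109 bases before the start and TTCNNNGAA 97 bases before it. GGCGCC also occurs 231 bases before the start of Id2 and 148 bases before that of Id4, and CACGTG 127 bases before the start of Bmp6 and 230 bases before that of Atoh8. GTCTAGAC begins 4 bases before the start of Smad6. None of the 4 motifs is in the Id3 window. Of 27025 mouse promoters of this length, 12% hold GGCGCC, 0.211% GTCTAGAC, 8.47% TTCNNNGAA and 7.24% CACGTG, so that all but GTCTAGAC are common sequences.

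Id1 and Id3, the genes on which the set was chosen, were lowest in the null DEHP livers. Id1 read 81.9, 85.1 and 80.8 in null DEHP mice and 111, 122.83, 136 and 129 in null corn oil mice, against 114, 138, 123.07 and 105 in wild-type DEHP mice and 123.07, 188, 171 and 149.6 in wild-type corn oil mice. The 3 null DEHP animals lay within a narrow band below all 12 other animals. The log2 difference between DEHP and corn oil in nulls was -0.59 ± 0.12 (SE, limma), a fold of 0.664. Id3 read 271, 189 and 246 in null DEHP mice and 423, 425, 439 and 507 in null corn oil mice, against 467, 435, 284 and 396 in wild-type DEHP mice and 333, 569, 449 and 464 in wild-type corn oil mice. All null DEHP animals were again below the lowest of the other 12, wild-type DEHP animal 58, though by a small step. The log2 difference in nulls was -0.94 ± 0.18, a fold of 0.520.

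**Figure D1:**
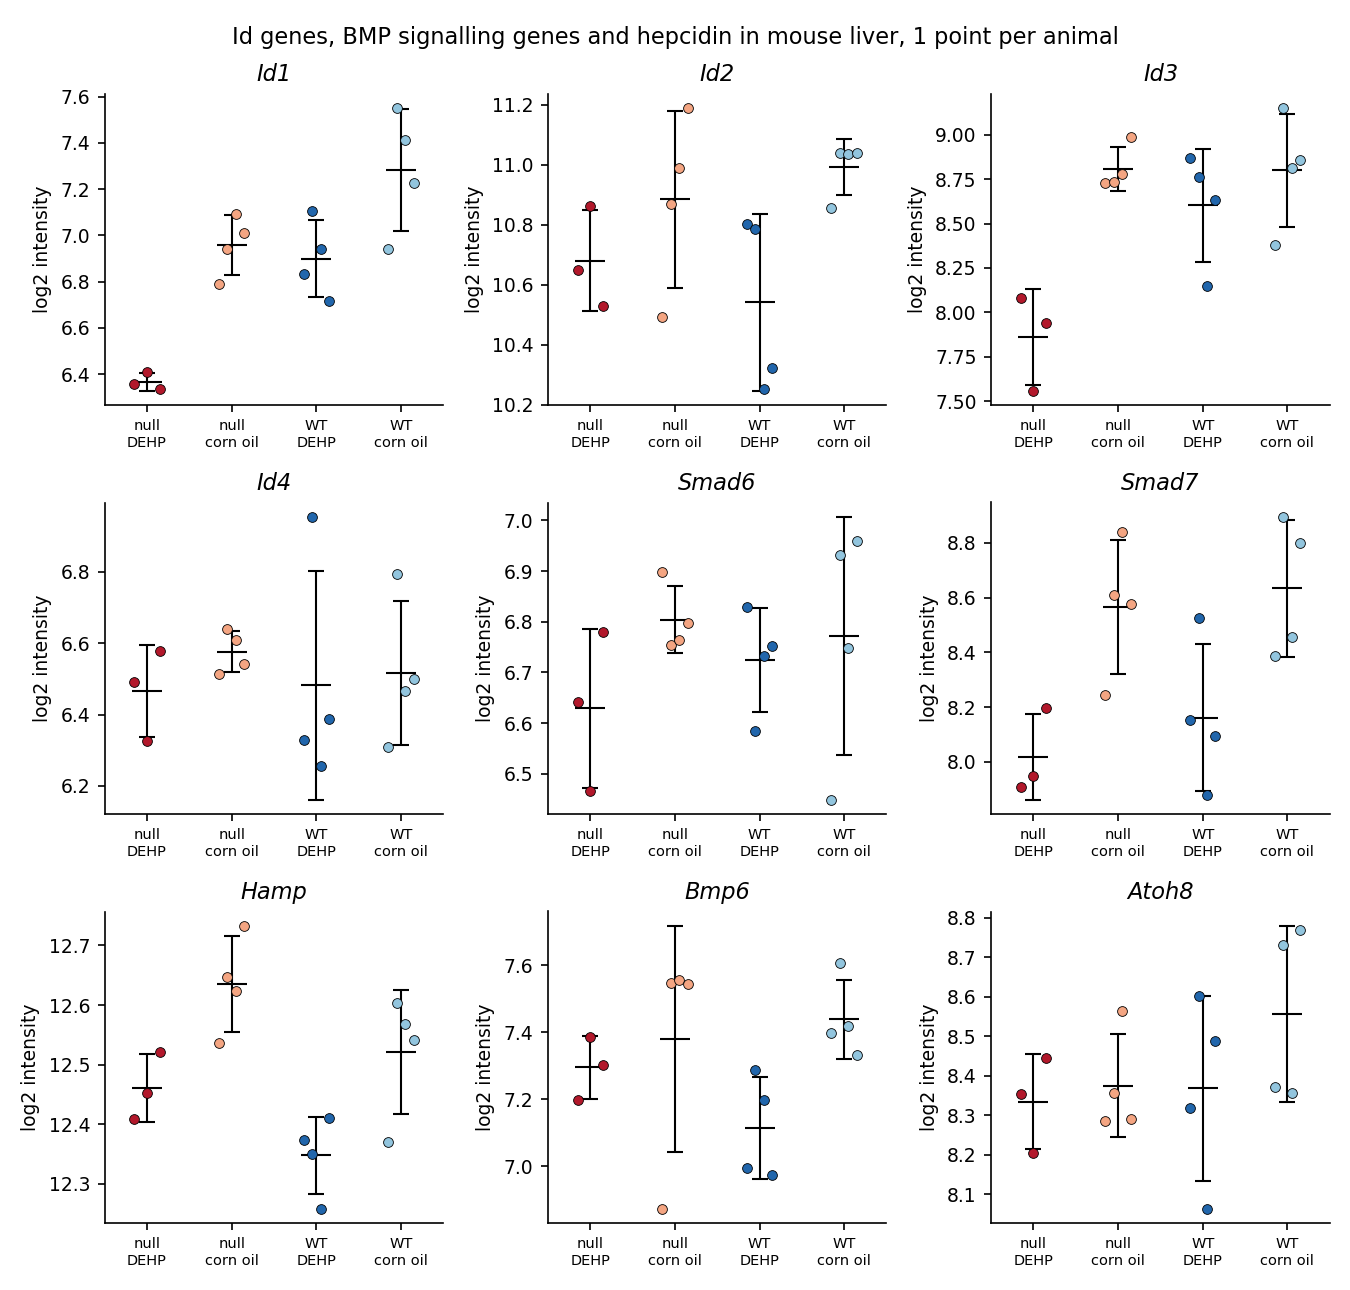
Log2 intensity (y axis) of the 9 genes in each animal of the 4 groups (x axis), with horizontal lines at the group mean and bars of 1 SD (n = 3 null DEHP, n = 4 in each other group). Id1 and Id3 of null DEHP mice lie below every other animal, with means of 6.37 and 7.86, while Id4, Smad6 and Atoh8 overlap in all groups.

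The choice rested on null mice and did not use wild-type values, but the set was drawn up with earlier results of these data known. In wild-type mice no gene of the set passed the test with DEHP. Across all genes 3.86% were called in this contrast, so 0 of 9 is near that background. Before adjustment 5 of the 9 had p below 0.05 in limma, a threshold met by 16.8% of all genes. All 9 log2 differences were below 0, from -0.47 to -0.04 with a median of -0.20, against a median of -0.01 over all 19938 genes. The count of 9 did not hold in every fit without 1 animal: Id4 reached 0.06 without corn oil animal 53 and Smad6 0.01 without corn oil animal 55. The groups did not overlap in 2 of the 9, Id2 and Bmp6, both lower under DEHP, where 5.77% of all genes had a DEHP group wholly below the corn oil group. Id1 averaged 120.0 ± 13.9 in wild-type DEHP mice and 158 ± 27.9 in wild-type corn oil mice (SD, n = 4 each), a log2 difference of -0.38 ± 0.11 (SE, adjusted p = 0.0753 in limma), and the groups overlapped through corn oil animal 52. Its adjusted p ran from 0.0149, without that animal, to 0.223 over all alternatives, and was 0.0373 where dim probe sets were left out and 0.0445 with array weights. Id3 read -0.20 ± 0.17 (adjusted p = 0.626 in limma), with an interval of -0.55 to 0.15. This difference was -0.34 without corn oil animal 52 and -0.05 without DEHP animal 58.

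The difference between the 2 DEHP effects, null minus wild type, was -0.75 ± 0.24 for Id3 and -0.21 ± 0.17 for Id1 on the log2 scale, given without a test since the null effect within it chose the genes. The value of Id1 ran from -0.30 without wild-type corn oil animal 53 to -0.09 without wild-type corn oil animal 52. Among DEHP-treated animals Id1 was lower in nulls than in wild type by -0.53 ± 0.12 and Id3 by -0.74 ± 0.18, with no overlap in either. Under corn oil the same differences were -0.33 ± 0.11 for Id1 and 0.01 ± 0.17 for Id3, with overlap in both. Groups with no overlap and the nulls lower made up 9.51% of all genes under DEHP. In the order of the 4 group means, Id1 stood lowest in null DEHP mice, then close together in wild-type DEHP and null corn oil mice, whose gap of 0.06 was smaller than the pooled SD of 0.18, and highest in wild-type corn oil mice. For Id3 the other 3 groups were not separated beyond the pooled SD of 0.27.

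**Figure D2:**
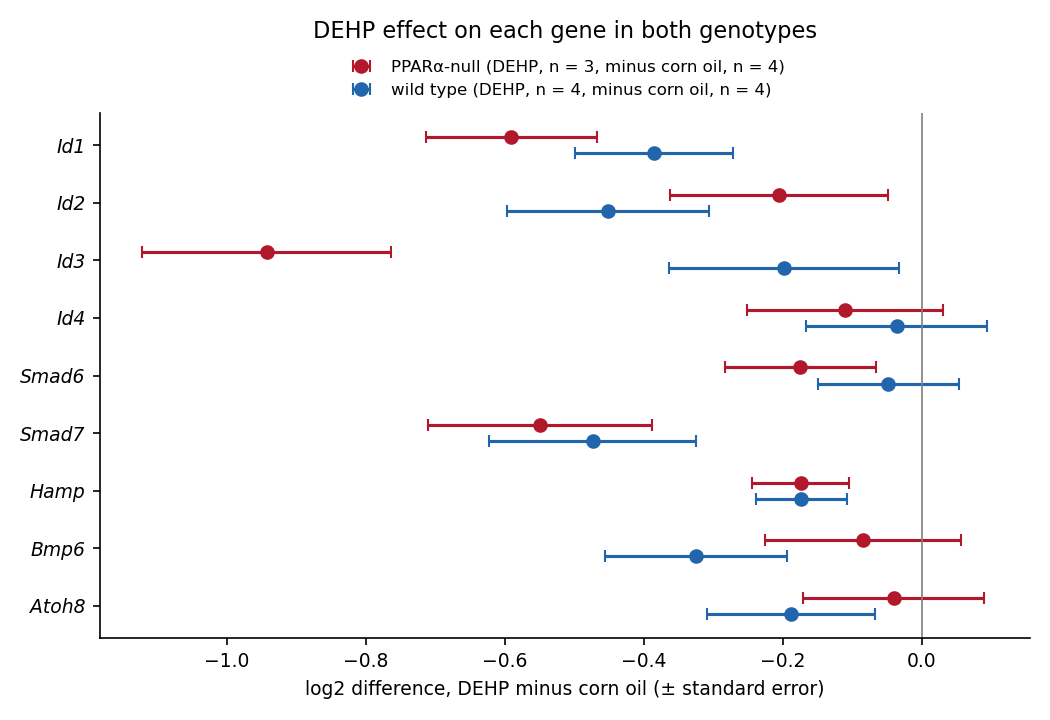
Log2 difference between DEHP and corn oil (x axis) with its limma standard error for each of the 9 genes, in PPARα-null mice (upper points) and wild-type mice (lower points). All points lie below 0, Id3 in nulls is farthest from it at -0.94, and Hamp is at -0.17 in both genotypes.

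Id2, a further inhibitor of E proteins, read 1607, 1861 and 1477 in null DEHP mice and 1439, 1869, 2035 and 2338 in null corn oil mice. In wild-type mice it read 1785, 1767, 1221 and 1279 under DEHP and 1852, 2103, 2103 and 2107 under corn oil. The null groups overlapped and the wild-type groups did not, with 3 of the 4 wild-type controls nearly equal. The log2 differences were -0.21 ± 0.16 in nulls and -0.45 ± 0.15 in wild type (SE, adjusted p = 0.11 in limma in wild type). Id4 stayed between 76.3 and 124 in all animals, and its differences were -0.11 ± 0.14 in nulls and -0.04 ± 0.13 in wild type (adjusted p = 0.932).

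Smad7, which encodes the inhibitory SMAD that acts on both BMP and TGFβ receptors, read 240.2, 247 and 293 in null DEHP mice and 303, 390.3, 458 and 382 in null corn oil mice. In wild-type mice it read 284, 368, 235 and 273 under DEHP and 335, 476, 351 and 446 under corn oil. The null groups did not overlap, though the nearest animals were 293 and 303, and in wild type DEHP animal 57 lay within the range of the controls. The log2 differences were -0.55 ± 0.16 in nulls (a fold of 0.683) and -0.47 ± 0.15 in wild type (a fold of 0.720, SE, adjusted p = 0.0991 in limma). Without DEHP animal 57 the adjusted p in wild type was 0.0359, and over all alternatives it ran from 0.0359 to 0.26. Among the 9 genes Smad7 alone had a gap larger than its pooled SD of 0.24 between both DEHP means, 8.02 in nulls and 8.16 in wild type, and both corn oil means, 8.57 and 8.64. Smad6, the inhibitory SMAD more selective for BMP receptors, ran from 87.4 to 124 over all animals and its groups overlapped in both genotypes, with log2 differences of -0.17 ± 0.11 in nulls and -0.05 ± 0.10 in wild type (adjusted p = 0.876).

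Hamp encodes hepcidin, the liver hormone that closes the iron exporter ferroportin. It read 5439, 5604 and 5881 in null DEHP mice and 5941, 6418, 6309 and 6809.5 in null corn oil mice, against 5308, 5224, 4900.0 and 5442 in wild-type DEHP mice and 5296, 6226, 6074 and 5964 in wild-type corn oil mice. The null groups did not overlap, with the closest animals 5881 and 5941, and in wild type only corn oil animal 52 fell among the DEHP animals. The log2 difference was -0.17 ± 0.07 in both genotypes, a fold of 0.886 in nulls and 0.887 in wild type (SE, adjusted p = 0.177 in limma in wild type). The size of this step is small, but so was the spread of Hamp, whose pooled SD was 0.08. Its near-identical neighbour Hamp2 read 82.3, 52.8 and 111 in null DEHP mice and 86.4, 65.5, 55.3 and 73.2 in null corn oil mice, and 142, 73.2, 63.6 and 169.7 in wild-type DEHP mice against 64.8, 71.7, 76.7 and 64.7 in wild-type corn oil mice. Hamp2 was thus high in 2 of the 4 wild-type DEHP animals (0.57 ± 0.27, adjusted p = 0.313), and to what extent each probe set reads the other gene's transcript is not known.

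Bmp6, which encodes the endothelial ligand that raises hepcidin when iron is plentiful, read 147, 167 and 158 in null DEHP mice and 117.3, 187, 188 and 187 in null corn oil mice. In wild-type mice it read 128, 156, 147 and 126 under DEHP and 169, 195, 171 and 161 under corn oil. All wild-type DEHP animals lay below all wild-type controls, by a narrow margin, and the null DEHP animals lay within the range of their controls, whose lowest animal stood far below the others. The log2 differences were -0.08 ± 0.14 in nulls and -0.32 ± 0.13 in wild type (SE, adjusted p = 0.213 in limma). Atoh8, a helix-loop-helix factor tied to the hepcidin promoter, ran from 267 to 436 and overlapped in both genotypes, with -0.04 ± 0.13 in nulls and -0.19 ± 0.12 in wild type (adjusted p = 0.483). Its null value turned to 0.02 without the null DEHP animal with the lowest Id3. In nulls 4 of the 9 genes, Id1, Id3, Smad7 and Hamp, had DEHP groups wholly below the corn oil groups. Such a pattern was met in 4.42% of all genes and nothing is read from the count, since this contrast chose the set.

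Between genotypes the 7 genes other than Id1 and Id3 could be tested, and none passed. Under corn oil limma called 0 of the 7, with 0 at an unadjusted p below 0.05, where 1.19% of all genes were called and 12% met the unadjusted threshold, and the lowest adjusted p was that of Hamp (0.11 ± 0.07, adjusted p = 0.53). Under DEHP it again called 0 of the 7, with 0 at an unadjusted p below 0.05, where 10.7% of all genes were called and 23% met the unadjusted threshold. Hamp read 0.11 ± 0.07 (adjusted p = 0.382) and Bmp6 0.18 ± 0.14 (adjusted p = 0.507) in that comparison. The widest 95% interval among the 7 was that of Smad7 under DEHP, -0.49 to 0.20, and that of Hamp ran from -0.04 to 0.26.

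Pooled over the 4 groups, the 9 genes tended to be high or low together among animals of one group, but single groups differed. Every pair correlated positively in wild-type corn oil mice. In null corn oil mice Smad6 correlated negatively with each other gene of the set. In the 3 null DEHP mice pairs of both signs occurred, with Id1 negative against Id3 and Id4. The deviations from the group mean correlated positively in 34 of 36 pairs, with a median r of 0.505 over the 15 arrays, against a median of 0.0211 and 52.3% positive over all pairs of the 10292 genes with log2 intensity of at least 6 in 3 arrays. Of the 36 pairs 3 had an adjusted p below 0.05 in a two-sided permutation test of deviations within groups (100000 permutations, Benjamini-Hochberg over the 36 pairs). Smad7 and Atoh8 correlated at r = 0.862 (p = 0.00241, adjusted p = 0.0302, Spearman rho = 0.846, permutation p = 0.00204) and at 0.874 without the 2 arrays farthest from the median of Smad7. Id4 and Smad7 correlated at r = 0.790 (permutation p = 0.00033, adjusted p = 0.0119, rho = 0.796, p = 0.00043) and at 0.668 without the 2 farthest arrays. Id1 and Bmp6 correlated at r = 0.634 (permutation p = 0.00252, adjusted p = 0.0302, rho = 0.814, p = 0.00088) and at 0.753 without them. Leaving out any 1 animal left 0 to 4 pairs past the threshold, with 0 when wild-type DEHP animal 57 was removed. Id3 and Hamp did not pass (r = 0.694, permutation p = 0.0152, adjusted p = 0.12, rho = 0.65, permutation p = 0.0195), and their r was 0.397 without the 2 arrays farthest from the median of Id3.

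The shared variation can be followed in single animals. The null control with the lowest Bmp6 was also lowest of its group in Id1, Id2, Id3, Id4, Smad7, Hamp and Atoh8, 8 of the 9 genes in all. Corn oil animal 52 was the lowest wild-type control in 7 of the 9, and DEHP animal 58 the lowest wild-type DEHP animal in 6 of the 9. Wild-type corn oil animal 53 was the highest of its group in 6 of the 9. Arrays carry no batch label here, and whether these animals differ in their livers or in their arrays was not tested.

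**Figure D3:**
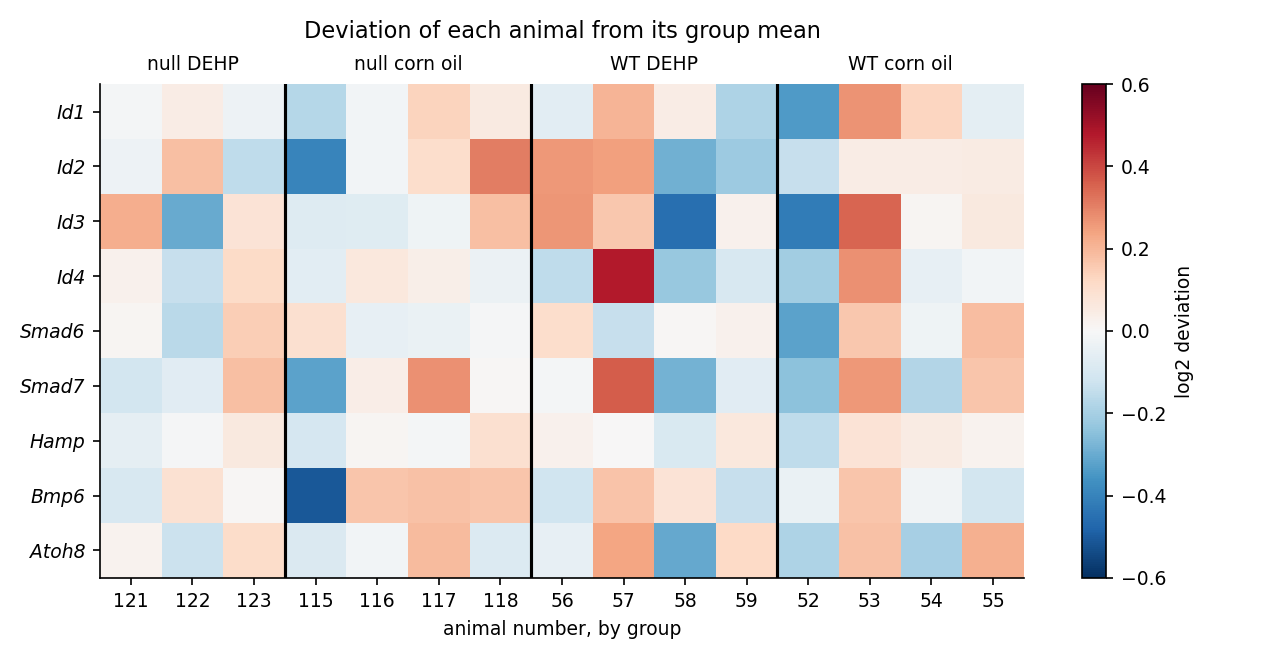
Deviation of each animal (columns, numbered as in the labels and split by group) from its group mean, in log2 units by colour, for the 9 genes (rows). The first null control and wild-type animals 52 and 58 form mostly blue columns, being lowest in their groups in 8, 7 and 6 of the 9 genes.

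The genes whose deviations most resembled those of Id1 over the 15 arrays, out of 10291 genes, were Ubtf, a factor of ribosomal RNA transcription (r = 0.909), Pan3, a subunit of a poly(A) nuclease (0.859), the aminopeptidase gene Npepps (0.849), Zfp770 (0.830) and Dennd4c (0.827). For Id3 they were the helicase gene Ddx41 (0.898), the cold-inducible RNA-binding protein gene Cirbp (0.879), the small nucleolar RNA Snord22 (0.873), Ess2 (0.871) and Endov (0.849). For Hamp they were the NADPH oxidase gene Nox4 (0.895), the carboxylesterase gene Ces3b (0.885), the deacetylase gene Sirt1 (0.884), the transporter gene Abca8a (0.882) and Fyttd1 (0.876). No gene of the set and no gene of the wider BMP and iron lists was among these 15. These r values were picked as the highest of 10291 and were not tested. They do not show that the genes vary together beyond these arrays.

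Upstream and downstream of the 9 genes, 72 further genes of the pathway were measured out of 73 listed. In wild-type mice 2 of the 72 rose and 2 fell with DEHP, 5.56% against 3.86% of all genes, with a median difference of -0.03 against -0.01 over all genes. Among 7 BMP ligands 1 fell. Bmp2, the other endothelial ligand of hepcidin control, read 196, 279.65, 238 and 193 in wild-type DEHP mice and 294.5, 328, 307.5 and 282.5 in wild-type corn oil mice, and the groups did not overlap. Its difference was -0.43 ± 0.11 (SE, adjusted p = 0.0333 in limma), but the call was lost in 7 of 8 fits that left out 1 animal, up to adjusted p = 0.104 without corn oil animal 53. Among 12 receptors and hepcidin co-receptors 1 fell, the endothelial co-receptor gene Eng (-0.29 ± 0.07, adjusted p = 0.0421), also lost in 6 of 8 such fits, up to adjusted p = 0.135 without corn oil animal 53. Of 11 genes of STAT3 and other inputs to hepcidin the acute phase genes Saa1 (4.71 ± 0.58) and Saa2 (5.66 ± 0.62) rose. Limma gave 0 calls among the 6 signal-carrying SMADs, 15 measured pathway inhibitors, 7 E protein and Hes or Hey genes and 14 iron handling genes. At an unadjusted p below 0.05 in limma these lists held 0, 3, 2 and 4 genes. Of all 72 genes 19 met that threshold, which 16.8% of all genes met.

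Regulators of hepcidin at the hepatocyte surface, and the iron exporter on which hepcidin acts, did not pass the test with DEHP in wild-type mice. The hemojuvelin gene Hjv read -0.04 ± 0.10 (adjusted p = 0.891), the transferrin receptor gene Tfr2 0.03 ± 0.07 (adjusted p = 0.897), the hemojuvelin protease gene Tmprss6 -0.13 ± 0.06 (adjusted p = 0.318) and the ferroportin gene Slc40a1 -0.23 ± 0.13 (adjusted p = 0.393). In nulls the same genes read 0.10 ± 0.11, 0.16 ± 0.07, 0.04 ± 0.07 and 0.13 ± 0.14 (adjusted p = 0.806, 0.382, 0.865 and 0.793).

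In null mice limma called 0 of the 72 pathway genes with DEHP, with 10 at an unadjusted p below 0.05, where 0.471% of all genes were called and 12.3% met the unadjusted threshold. Saa1 read 2135, 3087 and 247.5 in null DEHP mice and 301, 246, 729 and 203 in null corn oil mice. Saa2 read 3110, 5493 and 288 in null DEHP mice and 406, 385, 810.3 and 285 in null corn oil mice. Both were thus high in 2 of the 3 null DEHP animals, and the other animal lay within the range of the controls. The differences were 1.86 ± 0.63 for Saa1 (adjusted p = 0.205 in limma) and 1.96 ± 0.67 for Saa2 (adjusted p = 0.212), and both genes were called when that animal was left out. The median difference of the 72 genes was 0.06, against 0.01 over all genes. Bmp2 read 301, 314 and 307 in null DEHP mice and 271, 335, 306 and 347 in null corn oil mice, a difference of -0.03 ± 0.12 (adjusted p = 0.953). Gdf2, the gene of the circulating ligand BMP9, is named because its values were seen: its DEHP groups lay wholly below the corn oil groups in nulls (-0.42 ± 0.10, adjusted p = 0.0829) and in wild type (-0.29 ± 0.10, adjusted p = 0.114). Of 12 receptors and co-receptors 11 had a difference above 0 in nulls, while 6 of 7 BMP ligands had one below 0. Of all 72 genes 46 were above 0. The difference between the 2 DEHP effects was called for 0 of the 72 genes, with 11 at an unadjusted p below 0.05, where 0.898% of all genes were called and 13.4% met the unadjusted threshold, and read 0.40 ± 0.16 for Bmp2 (adjusted p = 0.263).

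**Figure D4:**
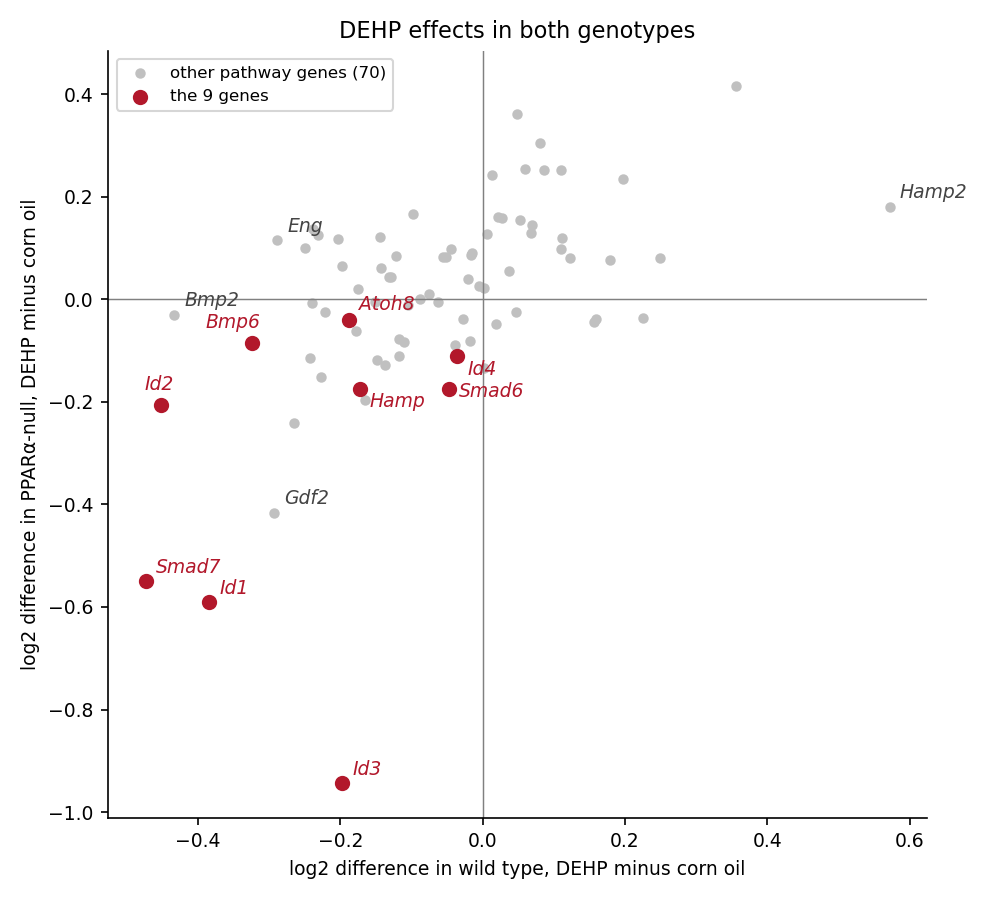
Log2 difference between DEHP and corn oil in wild-type mice (x axis) and in PPARα-null mice (y axis), with 1 point per gene, for the 9 genes (red, named) and 70 other pathway genes (grey, without Saa1 and Saa2, which lie off the scale). The red points all fall below 0 on both axes, and Bmp2 is at -0.43 in wild type and -0.03 in nulls.

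Between genotypes under DEHP 14 of the 72 pathway genes were higher in nulls and 0 lower. The share of 19.4% compares with 10.7% of all genes called in either direction and 5.09% called higher. Under corn oil limma called 0 of the 72, against 1.19% of all genes, and 9 had an unadjusted p below 0.05, against 12%. The ligand genes Bmp5 (0.53 ± 0.12, adjusted p = 0.00797) and Bmp2 (0.45 ± 0.12, adjusted p = 0.0189), the type I receptor gene Acvr1 (0.29 ± 0.06, adjusted p = 0.00628), the type II receptor gene Bmpr2 (0.26 ± 0.06, adjusted p = 0.00862) and Eng (0.38 ± 0.08, adjusted p = 0.00665) were among the 14. So were Acvr2b, Furin and the E protein genes Tcf4 (0.35 ± 0.06, adjusted p = 0.0024) and Tcf12. Furin, a protease that cuts BMP precursors, was counted in the list of pathway inhibitors. The interleukin 6 pathway gave Jak1 (0.34 ± 0.06, adjusted p = 0.00231), Il6st and Il6ra, and iron transport gave Slc11a2 and Slc39a14. Of 7 fits that each left out 1 animal, Acvr2b, Furin and Slc11a2 lost the call in 6, Tcf12 in 5, Il6ra and Slc39a14 in 4, Bmp2 in 3, Il6st in 2 and Acvr1 in 1, while Bmp5, Bmpr2, Eng, Jak1 and Tcf4 lost it in 0. Median centring also ended the calls of Acvr2b, Bmpr2, Furin, Slc11a2, Slc39a14 and Tcf12. The fit of 2 groups only ended those of Acvr2b, Bmp2, Furin, Il6ra, Il6st, Slc39a14 and Tcf12. The fit of all probe sets ended those of Furin, Slc11a2 and Slc39a14, and array weights that of Acvr2b. In the same comparison 10 of 16 endothelial markers, Eng among them, were called higher in nulls, with all 16 above 0 and a median of 0.32. Of 9 stellate cell markers 4 were called higher, Dcn, Hgf, Pdgfrb and Reln, with all 9 above 0 and a median of 0.48. Under corn oil 0 of these 9 were called, but all 9 were again above 0 in nulls, with a median of 0.32. All 8 Kupffer cell markers were above 0 in nulls in both comparisons, with medians of 0.25 under corn oil and 0.39 under DEHP. The endothelial markers had a median of 0.03 under corn oil, with 9 of 16 above 0. The part of these markers in the 14 calls was not tested. Leaving out the null DEHP animal with the lowest Id3 brought the count to 7, of which 5 were higher and 2, Saa2 and Creb3l3, lower in nulls, and leaving out wild-type DEHP animal 57 or 59 to 9.

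Summed endothelial markers were higher with DEHP in nulls and lower in wild type. Bmp2, Bmp6 and Id1 are made in endothelium as well as, for Id1, in hepatocytes. In whole liver fewer cells of a type and less RNA per cell cannot be told apart. All 16 listed endothelial markers were measured. In nulls all 16 had a difference above 0 with a median of 0.16. Limma called 0 of them with DEHP in nulls, where 0.471% of all genes were called. The summed intensity in nulls ran from 5912 to 6454 in DEHP mice and from 5281 to 5829.9 in corn oil mice. In wild type 11 of the 16 were below 0 and 5 above, up to 0.11, with a median of -0.12. Limma called 4 lower, Ehd3, Eng, Fcgr2b and Stab2, and 0 higher, against 3.86% of all genes called in either direction. The Fcgr2b call was lost in 3 of 8 fits without 1 animal, up to adjusted p = 0.0697 without corn oil animal 53 in limma. The wild-type sum ran from 4628 to 5194 in DEHP mice and from 5410 to 6077 in corn oil mice. The sums did not overlap in either genotype. The part of the marker changes in the values of the 9 genes was not tested in either genotype.

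**Figure D5:**
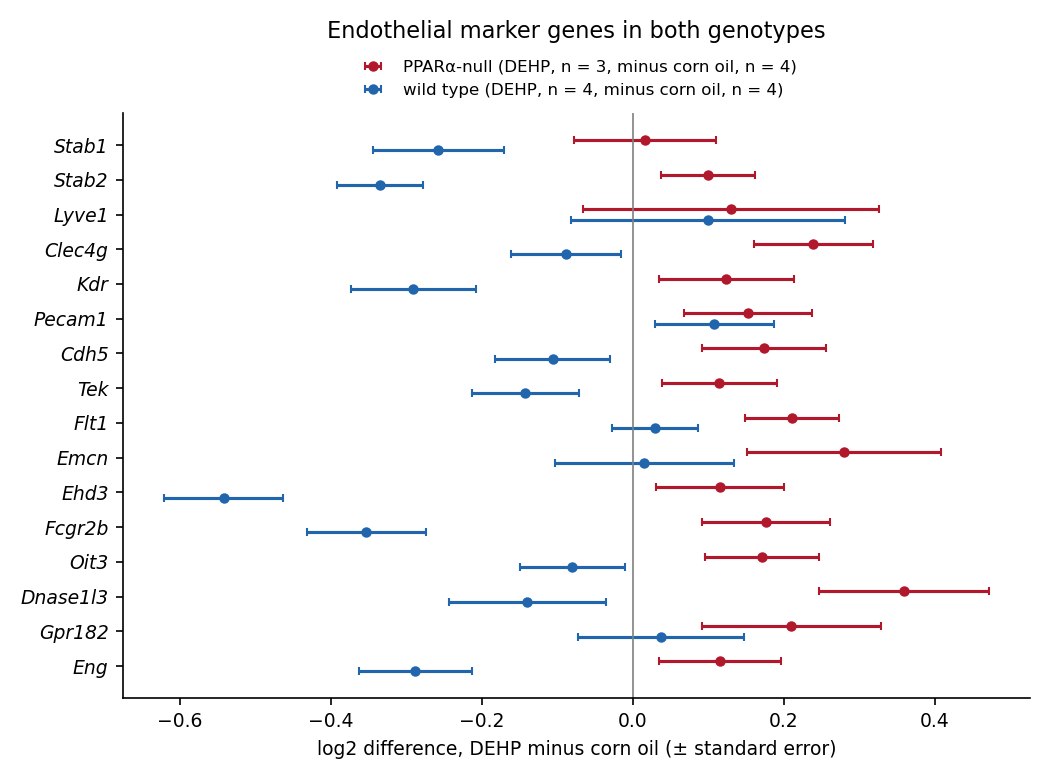
Log2 difference between DEHP and corn oil (x axis) with its limma standard error for 16 endothelial marker genes (rows), in PPARα-null mice (upper points) and wild-type mice (lower points). All 16 null values lie above 0. In wild type 11 lie below 0 and 5 above, and 4, those of Ehd3, Stab2, Fcgr2b and Eng, fell past the test.

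The other cell type lists were described in the same way. In wild type 1 of 5 measured hepatocyte markers fell with DEHP, the urea cycle gene Cps1 (-0.34 ± 0.08, adjusted p = 0.019 in limma), and the summed intensity ran from 48408 to 49970.2 in DEHP mice and from 52533 to 54376 in corn oil mice, with no overlap. In nulls that sum ran from 50369 to 53977 in DEHP mice and from 48936.5 to 53792.5 in corn oil mice. In wild type 0 of 8 Kupffer cell, 1 of 9 stellate cell (Reln, -0.50 ± 0.10, adjusted p = 0.00762 in limma) and 0 of 4 measured cholangiocyte markers were called, and 1 of 7 measured leukocyte markers, the neutrophil gene S100a8 (1.78 ± 0.24, adjusted p = 0.00061 in limma). Across all genes 3.86% were called with DEHP in wild type. The median of the cholangiocyte markers was 0.20. The summed leukocyte markers ran from 236 to 325 in wild-type DEHP mice and from 183 to 208 in wild-type corn oil mice, with no overlap, and from 219 to 261 in null DEHP mice and from 192 to 244 in null corn oil mice. Individual marker genes of all lists are named because their values were seen. The summed Kupffer cell markers ran from 2250 to 2659 in null DEHP mice and from 1992 to 2622 in null corn oil mice, and from 1581 to 2432 in wild-type DEHP mice and from 1776 to 2064 in wild-type corn oil mice, with overlap in both genotypes. The summed stellate cell markers ran from 2827 to 3787 in null DEHP mice and from 2933 to 4228 in null corn oil mice, and from 2319 to 2524 in wild-type DEHP mice and from 2430.2 to 2780.5 in wild-type corn oil mice. Of 4 erythroid markers only Alas2 was measured, and it was not called with DEHP in either genotype, although its wild-type groups did not overlap (-0.43 ± 0.12, adjusted p = 0.0546 in limma, 885 to 1405 in DEHP mice and 1472 to 1490 in corn oil mice). No marker of these lists was called with DEHP in nulls, where 0.471% of all genes were called, so counts of 0 are near that share. The part of these markers in the values of the 9 genes was not tested.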

How the data were processed

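Liver RNA of 15 mice was measured on single-colour Affymetrix arrays. The deposited table holds 1 intensity per probe set and array, already brought to a common scale by the authors with a method that the labels do not name. Kits, per the labels' protocols, were mirVana for total RNA and the GeneChip WT kit for labelling. Log2 of each value was taken with no further normalization. One gene symbol was attached to 21789 of the 35494 probe sets, more than 1 to 1621 and none to 12084. Per gene the probe set with the highest mean was kept (19938 genes). One mean per group was fitted over all 15 arrays in limma 3.58.1 (R 4.3.3), with Benjamini-Hochberg adjustment over all genes of a contrast, a threshold of 0.05 and no minimum fold. Rose, fell and called refer to that threshold. Errors of differences are limma's moderated standard errors and intervals are 95% ones. No gene was left out for low values, so all 9 were kept. The fit was tested on simulated data. The 9 genes, the pathway and marker lists and the tests were chosen with earlier results of these data known. Named genes were the 9, 6 fixed genes related to hepcidin, up to 4 called genes per list and contrast, and 3 checks of genotype and treatment. The 5 genes most alike to Id1, Id3 and Hamp were named too. Exceptions are marked. Alternatives were quantile normalization, median centring, a filter on dim probe sets (log2 of at least 6 in 3 arrays), log2(value + 16), all probe sets, 2 groups only, array weights and each animal left out. The number of arrays limits the precision. Correlations used scipy 1.17.1 and numpy 2.4.6, tables pandas 2.3.3 and plots matplotlib 3.10.9, all under Python 3.11.15.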

Additional observations from a re-analysis of the deposited data

Results flagged for a closer look

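Among 27 checks of a gene in a group of 4, Dixon's test set 2 animals apart, and chance alone sets apart about 1 in 20. Id2 in wild-type corn oil animal 52 had a log2 intensity of 10.85, with the other 3 at 11.04, a gap of 0.982 of the group's range. Bmp6 in 1 null corn oil animal had 6.87, with the other 3 from 7.55 to 7.56, a gap of 0.986 of the range. Without that animal the Bmp6 difference between DEHP and corn oil in nulls was -0.25, against -0.08 with it.

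The DEHP effect differed between genotypes, by the interaction term in limma, for 3 of 16 endothelial markers, where 0.898% of all genes were called. Differences are given as null minus wild type on the log2 scale. Ehd3, an endosomal membrane protein of the sinusoid, had a difference of 0.658 ± 0.12 (SE, adjusted p = 0.0163). Fcgr2b, an Fc receptor, had 0.530 ± 0.12 (adjusted p = 0.0416), and Stab2, a scavenger receptor, 0.435 ± 0.08 (adjusted p = 0.0234). Fcgr2b lost the call in 10 of 15 fits without 1 animal, up to adjusted p = 0.112, and Stab2 in 7 of 15, up to adjusted p = 0.0718, both without the null DEHP animal with the lowest Id3. Median centring ended both calls, and the fit of all probe sets that of Fcgr2b.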

How the results depend on the processing

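All 9 differences between DEHP and corn oil lay below 0 in both genotypes under each of the 7 alternatives that kept all animals, but leaving out 1 animal turned the sign of Id4 (up to 0.06) and Smad6 (up to 0.01) in wild type and of Atoh8 (up to 0.02) in nulls, none of them called. With dim probe sets left out 1 of the 9 genes, Id1, was called in wild type. Of the pathway genes, 7 were called in wild type with DEHP, 1 in nulls with DEHP and 3 in the difference of the DEHP effects. With log2(value + 16) these pathway counts were 7 in wild type and 1 in the difference. With all probe sets 2 were called in wild type. With 2 groups only 2 were called in wild type, 1 between genotypes under corn oil and 8 under DEHP. Array weights gave 1 of the 9 genes in wild type, Id1 again. Leaving out 1 animal gave 0 to 1 of the 9 genes in wild type and 0 of the 7 between genotypes. It gave 2 to 4 pathway genes in wild type, 0 to 2 in nulls, 0 to 1 in the difference, 0 between genotypes under corn oil and 7 to 12 under DEHP, and 0 to 4 correlated pairs. The cause of these shifts was not tested. No called direction reversed. No paired analysis was possible because the groups share no replicate numbers.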
